A study of Homo sapiens with 8 samples.

Results

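The cytosolic ribosomal protein genes were followed across 4 siRNA groups of MCF10A, an immortalised, non-tumorigenic human breast epithelial cell line. They were taken by symbol: RPL or RPS followed by a number, with an optional A, X or L suffix, together with RPLP0, RPLP1, RPLP2 and RPSA, and without the RPS6 kinases and pseudogenes. This gave 88 entries with 84 different symbols among 29991 entries, 54 for the large subunit and 34 for the small subunit, called members below. Polyadenylated RNA was sequenced from cells transfected with siLATS1/2/p53 (siRNA against LATS1, LATS2 and p53), siLATS1/2 (LATS1 and LATS2), sip53 (p53 alone) or siControl, the control siRNA. Each group had 2 libraries, 1 from each of 2 independent batches of cells, so 8 libraries in all. P-values from fits without the batch as a block measure the spread between those batches. Those with the block measure the spread left after a batch shift common to the groups is taken out. All groups were the same line, transfected with siRNA, so a knockdown is partial. No time after transfection is given in the sources used here. The series title asks how lower LATS kinase levels alter p53.

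Every ribosome is built from a large and a small subunit, each holding ribosomal RNA and 1 copy of most of these proteins, so cells make the proteins in balanced amounts. Many of their messenger RNAs begin with a run of pyrimidines, the 5′ terminal oligopyrimidine (TOP) tract, through which growth signals set how strongly they are translated. When ribosome assembly is disturbed, free RPL5 and RPL11, bound to 5S ribosomal RNA, block MDM2, the ubiquitin ligase that keeps p53 low. p53 itself activates RPS27L, a small subunit paralogue, and LATS1 and LATS2 are the kinases of the Hippo pathway that hold back the growth coactivators YAP and TAZ.

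The start of the transcript shows which members carry the pyrimidine run and which of the genes described below lack it. Each window holds the 10 bases before and the first 20 bases from a RefSeq transcript start on GRCh38.p14, read on the transcribed strand. Capitals mark a run of at least 5 bases made only of C and T, beginning with C, that starts within 5 bases of the transcript start. The RPS27L window lies at chr15:63157458-63157487 (minus strand), that of its partner RPS27 at chr1:153990752-153990781 (plus strand), that of RPL22 at chr1:6199576-6199605 (minus) and that of its paralogue RPL22L1 at chr3:170870176-170870205 (minus). The RPL39 window lies at chrX:119791611-119791640 (minus), that of RPL31 at chr2:101002279-101002308 (plus), that of RPL12 at chr9:127451387-127451416 (minus) and that of RPS15 at chr19:1438386-1438415 (plus).
RPS27L: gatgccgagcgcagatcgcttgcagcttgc
RPS27: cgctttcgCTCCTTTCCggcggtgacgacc
RPL22: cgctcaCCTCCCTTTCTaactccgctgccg
RPL22L1: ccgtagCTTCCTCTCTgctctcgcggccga
RPL39: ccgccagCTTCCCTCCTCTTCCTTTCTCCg
RPL31: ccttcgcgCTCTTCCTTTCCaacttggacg
RPL12: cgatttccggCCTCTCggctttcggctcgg
RPS15: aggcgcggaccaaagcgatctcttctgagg

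Of the 84 symbols, 67 matched the RefSeq promoter table, and 54 of these (80.6%) had such a run at 1 or more of their starts, against 6886 of 27305 genes in the whole table (25.2%). Only the transcribed strand was searched, and no other motif. The run in RPL39 was 22 bases long and that in RPL31 was 12 bases long, whereas RPS27L, RPS15 and all 3 listed starts of RPL15 had none. The other members without a run were RPL10L, RPL17, RPL26L1, RPL27, RPL6, RPL7L1, RPL9, RPS26, RPS29 and RPS4X. A match only describes these letters, and a missing match says only that no such run starts within 5 bases of the transcript start. Runs of C and T that start further along, as in the windows of RPS15, RPL27 and an RPL15 start, were not counted.

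Values are the deposited log2 levels, in which nothing lies below 5; a gene at 5 is at this floor and was not separated from absence. Of the 88 entries, 80 passed the filter for testing (above the floor in 2 or more libraries), 49 of the large and 31 of the small subunit, and 77 were above it in all 8. The 8 others were RPS27, RPS28, RPL21, RPL10L, RPL3L, a pair of RPL9 entries and an RPS17L entry; 5 of them were at the floor in every library and 3 were above it in 1 library. RPS27 and RPS28 are core ribosomal proteins, so their floor values describe the deposited table rather than the cells. Ribosomal protein genes have many near-identical processed pseudogenes, reads of which may be split or dropped, and the library kit does not mark strand, so the level of any single member is uncertain in this respect.

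The libraries had 11756 to 12064 entries above the floor, and depths estimated from the spacing of low values were 11.3 to 37.1 M reads, lowest in siLATS1/2/p53 batch 1. LATS1, which checks the labels, was at 7.97 and 7.90 in siLATS1/2/p53 (batch 1 and batch 2) and at 7.93 and 8.10 in siLATS1/2, against 9.54 and 9.64 in siControl. MDM2, a p53 target, was at 10.98 and 10.57 in siLATS1/2/p53 and at 11.14 and 11.05 in sip53, against 12.34 and 12.20 in siControl. Both moved with the labels. All 9 basal breast epithelial markers were above the floor in every library, with summed linear levels of 193539 to 321486, and all 4 markers of blood and endothelium were at the floor. Of 4 luminal markers 2 were above the floor in all libraries (summed 355 to 593, PGR at the floor), and of 4 fibroblast markers 1 was (summed 168 to 1090, PDGFRB and COL1A2 at the floor). The fibroblast sum was higher in batch 1 than in batch 2 in every group, and so was DCN (9.86 against 7.02 in siControl). COL1A1, the marker above the floor in all libraries, was at 7.32 in batch 1 and 7.61 in batch 2 of siControl. In the other groups COL1A1 was lower in batch 2. The sum thus leans on DCN, and its part in the results was not tested.

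The ribosomal protein genes as a body varied little. Their range over the 8 libraries had a median of 0.49 on the log2 scale, against 0.62 over the 12315 entries tested, and 41 of 80 stayed within 0.5. Many members lay at high levels, 37 of 80 with a mean of 12 or more. No comparison with other entries at matched levels was made. Their summed linear signal took 1.60% and 1.65% of the total in siLATS1/2/p53 (batch 1 and batch 2), 1.36% and 1.58% in siLATS1/2, 1.37% and 1.54% in sip53, and 1.43% and 1.67% in siControl. Both siLATS1/2/p53 values lay above those of siLATS1/2 and sip53 and between those of siControl, and batch 2 was above batch 1 in all 4 groups. Ranges above 1 included those of RPS26 (2.09), RPL7 (1.78), RPS18 (1.26), RPS27L (1.18) and RPL39 (1.11).

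**Figure D1:**
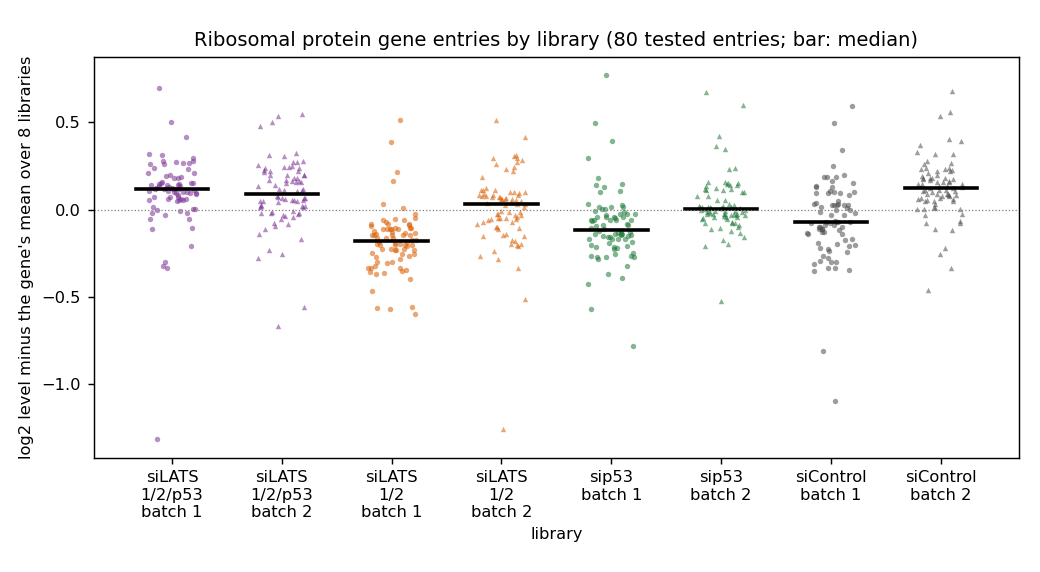
Log2 level of each of the 80 tested entries minus that entry's mean over the 8 libraries, by library; circles are batch 1, triangles batch 2 and the bar is the median. The medians were 0.12 and 0.09 in siLATS1/2/p53, -0.18 and 0.03 in siLATS1/2, -0.12 and 0.00 in sip53 and -0.07 and 0.12 in siControl (batch 1 and batch 2).

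RPS27L, the paralogue of the zinc-finger protein RPS27 and a known p53 target, fell in both groups that received p53 siRNA. Its log2 level was 9.03 and 8.67 in siLATS1/2/p53 and 9.01 and 8.81 in sip53, against 9.85 and 9.75 in siLATS1/2 and 9.83 and 9.73 in siControl. All 4 libraries with p53 siRNA lay below all 4 without it. In bulk RNA, fewer cells of one kind and less RNA per cell cannot be told apart. Against siControl, RPS27L fell by 0.93 ± 0.15 (log2, SE) in siLATS1/2/p53, a ratio of 0.525 (limma, adjusted p = 0.00845), and by 0.87 ± 0.15 in sip53, a ratio of 0.548 (limma, adjusted p = 0.0310). Against siLATS1/2, it fell by 0.95 ± 0.15 in siLATS1/2/p53 (limma, adjusted p = 0.00949). siLATS1/2 and siControl differed by 0.02 ± 0.15 (limma, adjusted p = 0.965). When limma also took the batch as a block, these 3 falls had adjusted p-values of 7.91e-06, 5.39e-05 and 1.15e-05. In fits leaving out 1 library, the siLATS1/2/p53 fall against siControl missed the threshold without siControl batch 1 (limma, adjusted p = 0.0542), and that against siLATS1/2 missed it without siLATS1/2 batch 1 (0.0870) or batch 2 (0.0693). The sip53 fall passed only when a siLATS1/2/p53 library was the one left out (limma, adjusted p = 0.0432 without batch 1 and 0.0431 without batch 2) and ranged up to 0.172 otherwise. The partner gene RPS27 was listed at 5.50 in siLATS1/2/p53 batch 2 and at the floor in the other 7 libraries, so the pair could not be compared.

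RPL22, a large subunit protein that also binds other RNAs, fell in siLATS1/2/p53 and had similar levels in sip53. Its log2 level was 10.14 and 9.92 in siLATS1/2/p53, 10.22 and 10.30 in siLATS1/2 and 10.02 and 10.04 in sip53, against 10.44 and 10.47 in siControl. Each knockdown group lay below siControl without overlap. The fall in siLATS1/2/p53 was 0.43 ± 0.10, a ratio of 0.743 (limma, adjusted p = 0.0304; 0.00192 with the block), but it passed in only 1 of 8 fits that left out a library, the one without siLATS1/2/p53 batch 1 (limma, adjusted p = 0.0396, against up to 0.0998 in the others). In sip53 the difference was -0.43 ± 0.10 (limma, adjusted p = 0.0630); it passed with the block (0.00370) or after rescaling the libraries by medians of ratios (0.0361). The paralogue RPL22L1, whose expression RPL22 represses in mouse, was at 11.41 and 11.34 in siLATS1/2/p53, 11.22 and 11.18 in siLATS1/2, 11.39 and 11.41 in sip53, and 11.55 and 11.37 in siControl. RPL22L1 was lowest in siLATS1/2, at -0.26 ± 0.09 against siControl (limma, adjusted p = 0.112; 0.0147 with the block; 0.0826 with the block and rescaling), and its values in both p53 siRNA groups overlapped those of siControl.

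RPL39, a short protein lining the exit tunnel of the large subunit, and its paralogue RPL39L had unlike patterns. RPL39 was at 7.38 and 7.45 in siLATS1/2/p53, 7.65 and 7.19 in siLATS1/2 and 7.71 and 7.71 in sip53, against 8.30 and 8.24 in siControl. Every knockdown library lay below both siControl libraries. The fall was 0.85 ± 0.17 in siLATS1/2/p53, a ratio of 0.553 (limma, adjusted p = 0.0184), and 0.85 ± 0.17 in siLATS1/2, a ratio of 0.555 (limma, adjusted p = 0.0309). In sip53 the difference was -0.56 ± 0.17 (limma, adjusted p = 0.122; 0.0143 with the block). The siLATS1/2 call was lost whichever of the 8 libraries was left out (limma, adjusted p = 0.0573 to 0.119). The siLATS1/2/p53 call was lost without siControl batch 1 (0.0869) or batch 2 (0.0595) and without siLATS1/2/p53 batch 1 (0.0956) or batch 2 (0.0776).

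RPL39L was above the floor only in libraries with p53 siRNA. Its log2 level was 5.84 and 5.62 in siLATS1/2/p53 and 5.49 and 5.76 in sip53, against the floor of 5 in both siLATS1/2 and both siControl libraries. It passed the filter for testing only through the groups with p53 siRNA, so no test of it is given as support. Because siLATS1/2 and siControl sit at the floor, the differences are lower bounds of an unknown true value: 0.73 in siLATS1/2/p53 against either of them and 0.62 in sip53 against siControl. The floor stood for an estimated 14.6 reads in siLATS1/2/p53 batch 1 and 16.0 in siControl batch 1, and for more in the other 6 libraries.

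RPL15 and RPL31, 2 large subunit proteins, rose in siLATS1/2/p53 against siLATS1/2. RPL15 was at 12.87 and 12.66 in siLATS1/2/p53, against 12.34 and 12.40 in siLATS1/2, a rise of 0.39 ± 0.09 or a ratio of 1.31 (limma, adjusted p = 0.0302). RPL31 was at 11.44 and 11.37 in siLATS1/2/p53, against 10.88 and 11.15 in siLATS1/2, a rise of 0.39 ± 0.10 or a ratio of 1.31 (limma, adjusted p = 0.0477). The groups did not overlap for either gene. In this comparison the median of all entries tested was 0.15, and rescaling brought it to 0.00. After that rescaling RPL15 was higher by 0.24 (limma, adjusted p = 0.115) and RPL31 by 0.23 (limma, adjusted p = 0.204), so neither call held relative to the bulk of genes without the block; both held with the block and rescaling together. RPL31 was called in no fit that left out a library (limma, adjusted p = 0.0628 to 0.210), and RPL15 in 3 of 8, without siControl batch 1 (0.0425), siControl batch 2 (0.0429) or siLATS1/2/p53 batch 2 (0.0368). Against siControl, which had 12.53 and 12.57 for RPL15 and 11.36 and 11.36 for RPL31, neither gene was called in siLATS1/2/p53 without the block. In sip53 the genes differed: RPL15 was at 12.71 and 12.74, above both siControl libraries, and RPL31 at 11.19 and 11.28, below both.

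**Figure D2:**
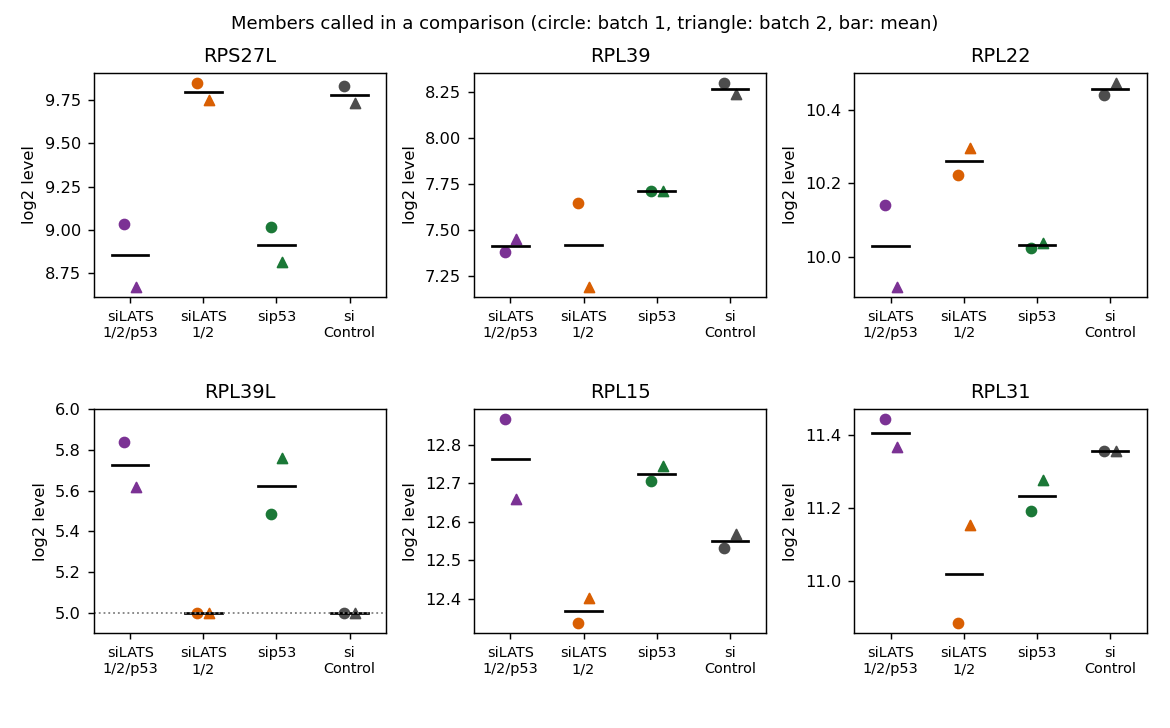
Log2 level of the 6 members called in at least 1 comparison without the block, by group. Circles are batch 1, triangles batch 2, bars the mean of the 2, and the dotted line for RPL39L is the floor of 5. RPL39L passed the filter for testing only through the groups with p53 siRNA, so its call is not given as support. RPS27L lay between 8.67 and 9.03 in the groups with p53 siRNA and between 9.73 and 9.85 in the others.

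The remaining paralogues gave no call in any comparison. RPL26L1, the paralogue of RPL26, was at 8.00 and 7.52 in siLATS1/2/p53, 7.51 and 7.75 in siLATS1/2, 7.87 and 7.49 in sip53, and 7.78 and 7.57 in siControl, and all groups overlapped. RPL7L1, which acts in making the large subunit rather than in the finished ribosome, was at 10.36 and 10.21 in siLATS1/2/p53, 9.94 and 10.19 in siLATS1/2, 10.35 and 10.48 in sip53, and 10.11 and 10.33 in siControl. RPL10L, a testis paralogue of RPL10, and RPL3L, a muscle paralogue of RPL3, were at the floor in all 8 libraries. RPL7 was the member with the second widest range: 7.55 and 7.81 in siLATS1/2/p53, 6.71 and 7.58 in siLATS1/2, 7.02 and 7.38 in sip53, and 6.18 and 7.95 in siControl, where the siControl libraries alone spanned the other 6.

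RPL5, RPL11, RPL23 and RPS7, ribosomal proteins known to bind MDM2, were called in no comparison without the block. RPL5 was at 12.02 and 12.08 in siLATS1/2/p53, 11.82 and 11.90 in siLATS1/2 and 12.06 and 12.16 in sip53, against 12.18 and 12.17 in siControl. Both siLATS1/2 values were the lowest of the 8, and the difference from siControl was -0.32 ± 0.08 (limma, adjusted p = 0.0529; 0.00251 with the block; 0.0159 with the block and rescaling). RPL11, the partner of RPL5, was at 13.64 and 13.35 in siLATS1/2/p53, 13.16 and 13.44 in siLATS1/2, 13.24 and 13.33 in sip53, and 13.41 and 13.49 in siControl, with no call with or without the block. RPL23 had the narrowest range among the 80 tested entries, 12.19 to 12.39. RPS7 was at 10.29 and 10.40 in siLATS1/2/p53 and 10.37 and 10.26 in sip53, against 10.13 and 10.16 in siLATS1/2 and 10.13 and 10.11 in siControl, a difference of 0.22 ± 0.09 between siLATS1/2/p53 and siControl (limma, adjusted p = 0.137; 0.0479 with the block; 0.173 with the block and rescaling).

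The stalk proteins, which recruit translation factors to the large subunit, were called in no siRNA comparison without the block. All 3 were higher in batch 2 than in batch 1 (limma with the block, adjusted p = 0.0130 for RPLP0, 0.0281 for RPLP1 and 0.00122 for RPLP2). RPLP2 was at 13.09 and 13.33 in siLATS1/2/p53, 12.96 and 13.13 in siLATS1/2, 12.83 and 13.09 in sip53, and 12.96 and 13.44 in siControl. Batch 2 was the higher in every group. RPLP0 was at 12.64 and 12.66 in siLATS1/2/p53, 12.27 and 12.58 in siLATS1/2, 12.36 and 12.52 in sip53, and 12.31 and 12.70 in siControl. RPLP1 was at 12.18 and 12.17 in siLATS1/2/p53 and 11.78 and 11.89 in sip53, a difference of 0.33 ± 0.14 (limma, adjusted p = 0.282; 0.0125 with the block).

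Across all members, few entries passed the test in any comparison. In siLATS1/2/p53 against siControl, 3 of 80 fell (RPS27L, RPL39, RPL22) and 1 was called higher (RPL39L, which was testable only through its high groups), together 5% of the members beside 14.6% of all entries. The members' median difference was 0.07, beside 0.08 over all entries, and was 0.19 within batch 1 and -0.01 within batch 2. With the block, 13 rose and 5 fell, beside 25.5% of all entries higher and 13.8% lower, and rescaling together with the block gave 6 rises and 6 falls. RPS15, a small subunit protein named after its values were seen, was among the members that rose with the block (0.49; limma with the block, adjusted p = 0.000918). In both batches 34 members (42.5%) were higher, beside 47% of all entries, so the share of members was near the background.

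In siLATS1/2 against siControl, only RPL39 fell and none rose, 1.25% of members beside 7.7% of all entries. The median was -0.11, beside -0.07 over all entries, and was -0.12 within batch 1 and -0.11 within batch 2. With the block, 17 members fell (21.2%) and none rose, beside 21.4% of all entries lower and 10.5% higher; rescaling together with the block gave 7 falls and 2 rises. In both batches 44 members (55%) were lower, beside 47.7% of all entries. Named after their values were seen, RPS27A, which is made as a fusion with ubiquitin, was at 10.04 and 10.16 in siLATS1/2, against 10.71 and 10.41 in siControl (-0.46 ± 0.13; limma, adjusted p = 0.0804; 0.00501 with the block). RPL12, at the base of the stalk, was at 6.68 and 7.27 in siLATS1/2, against 7.46 and 7.53 in siControl (-0.53 ± 0.26; limma, adjusted p = 0.260; 0.0343 with the block; 0.0829 with the block and rescaling).

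In sip53 against siControl, only RPS27L fell and none rose, 1.25% of members beside 3.86% of all entries. The members' median was -0.07 while that of all entries was 0.06, and 23 of 80 members lay above 0, beside 60.3% of all entries. Within batches the median was -0.03 in batch 1 and -0.12 in batch 2, beside 0.07 and 0.04 over all entries. In both batches 41 members (51.2%) were lower, beside 27.2% of all entries. With the block, 9 fell and 1 was called higher (RPL39L, with the same limit), beside 10% of all entries lower and 16% higher; rescaling together with the block gave 19 falls and 1 rise. Single members ran from -0.87 (RPS27L) to 0.62 (RPL39L).

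**Figure D3:**
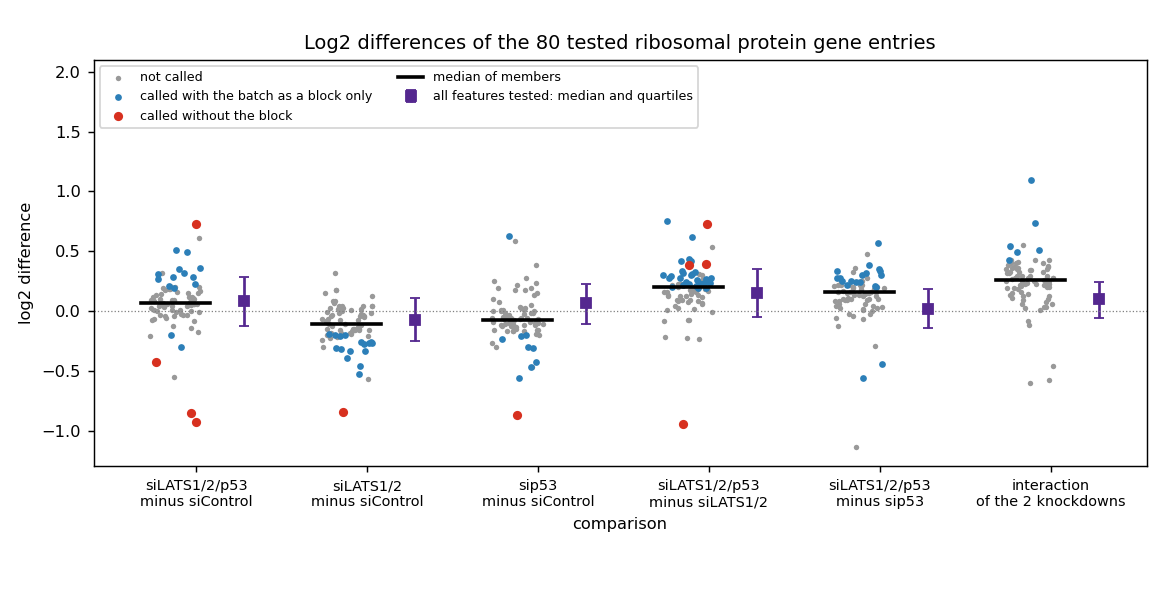
Log2 difference of each of the 80 tested entries in 5 comparisons and in the interaction of the 2 knockdowns; the bar is the members' median, and the square with whiskers gives the median and quartiles over all 12315 entries tested. The members' medians were 0.07, -0.11, -0.07, 0.20, 0.16 and 0.26 from left to right, beside 0.08, -0.07, 0.06, 0.15, 0.01 and 0.10 over all entries.

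Adding p53 siRNA to LATS1/2 siRNA gave the most calls with the block. The block takes out a batch shift common to the groups, which the members of these 2 groups did not share. Their deviations by batch correlated at r = -0.42, and their median of batch 2 minus batch 1 was 0.19 in siLATS1/2 and -0.0046 in siLATS1/2/p53. P-values with the block are limited by this here. In siLATS1/2/p53 against siLATS1/2, RPL15 and RPL31 rose, RPS27L fell and RPL39L was called higher with the same limit, together 5% of members beside 14.5% of all entries; after rescaling none rose and 2 fell, RPS27L and RPL22. The median was 0.20, beside 0.15 over all entries, and 0.04 beside 0.00 after rescaling. It was 0.31 within batch 1 and 0.09 within batch 2, where all entries had 0.17 and 0.13. With the block, 33 rose (41.2%) and 1 fell, beside 33.8% of all entries higher and 9.72% lower; rescaling as well gave 5 rises and 5 falls, so most of these rises were not seen relative to the bulk of genes. In both batches 53 members (66.2%) were higher, beside 57.3% of all entries. RPS15, named after its values were seen, was at 10.56 and 10.80 in siLATS1/2/p53, against 9.83 and 10.01 in siLATS1/2, a difference of 0.76 ± 0.21 without overlap (limma, adjusted p = 0.0527; 3.52e-05 with the block), and it still passed with the block and rescaling.

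Adding LATS1/2 siRNA to p53 siRNA gave no call in limma without the block, where 3.66% of all entries were called; 5 of 80 members had an unadjusted p under 0.05, beside 2216 of 12315 entries. The members' median in siLATS1/2/p53 against sip53 was nevertheless 0.16, beside 0.01 over all entries, and 0.14 beside 0.00 after rescaling. It was 0.24 within batch 1 and 0.09 within batch 2, beside 0.03 and 0.00 over all entries. In both batches 57 members (71.2%) were higher, beside 38.2% of all entries. With the block, 17 rose (21.2%) and 2 fell, beside 12.7% of all entries higher and 9.42% lower; rescaling together with the block left 15 and 2. RPS12, of the small subunit, rose by 0.38 (limma with the block, adjusted p = 0.0028) and RPL28, of the large subunit, by 0.35 (limma with the block, adjusted p = 0.0037), while RPL36A fell by 0.56 (limma with the block, adjusted p = 0.0151). These 3 were named after their values were seen. This comparison shares its siLATS1/2/p53 libraries with that against siLATS1/2, and its sip53 libraries with that of sip53 against siControl.

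**Figure D4:**
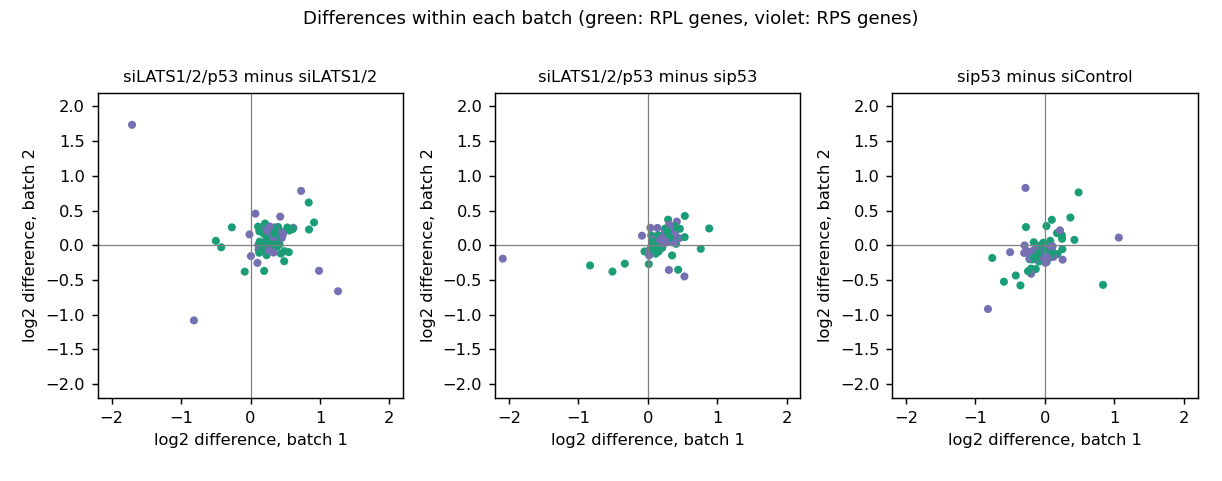
Log2 difference of each tested entry within batch 1 (horizontal axis) and within batch 2 (vertical axis) for 3 comparisons; green points are RPL genes and violet points RPS genes. In siLATS1/2/p53 minus sip53, 57 of 80 entries were above 0 in both batches, and in sip53 minus siControl 41 were below 0 in both.

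The interaction of the 2 knockdowns asks whether the effect of both siRNAs differs from the sum of each alone. No member passed in limma without the block, and 16 of 80 had an unadjusted p under 0.05; 0% of all entries passed, with 807 of 12315 under an unadjusted 0.05. The members' median interaction was 0.26, beside 0.10 over all entries, and 75 of 80 were above 0, beside 66.8% of all entries; after rescaling the medians were 0.17 and 0.00. With the block 6 members passed, all upward (7.5%, beside 1.75% of all entries): RPL12 (1.09), RPS27A (0.73), RPL32 (0.54), RPL31 (0.51), RPS23 (0.50) and RPL3 (0.43), with adjusted p-values in limma with the block from 0.0202 (RPL32) to 0.0483 (RPL3). None passed with the block and rescaling. RPL32, one of these large subunit proteins, was at 11.36 and 11.39 in siLATS1/2/p53, 10.97 and 11.13 in siLATS1/2 and 11.15 and 11.30 in sip53, against 11.37 and 11.50 in siControl. Both single knockdowns lay below siControl without overlap, and siLATS1/2/p53 lay close to the siControl batch 1 value.

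Between the batches of cells 28 members were called in the block fit, where the 5 siRNA comparisons had 10 to 34. These counts are not directly comparable, because the batch term rests on more libraries and has smaller standard errors. The batch comparison was added after the data were seen. In it, 27 members (33.8%) were higher in batch 2 and 1 (RPL9) was lower, beside 12.5% of all entries higher and 17.8% lower. This shift was not particular to the members. Of 39 translation factors 33.3% were higher in batch 2, of 50 ribosome biogenesis factors 26% and of 20 RNA polymerase I genes 25%. The median difference was 0.099 over the members and 0.099 over the translation factors. Of the 9 basal epithelial markers, 8 were also called higher in batch 2, with a median of 0.33 over the 9. The fibroblast sum, which leans on DCN, was lower there. The part of these markers in the members' shift was not tested. RPL28, chosen after its values were seen, was at 13.40 in batch 2 against 13.16 in batch 1 of siLATS1/2/p53, 13.38 against 12.90 in siLATS1/2, 13.16 against 12.69 in sip53 and 13.25 against 12.74 in siControl, a mean difference of 0.42 ± 0.05 (limma with the block, adjusted p = 5.81e-05). Batch 2 was above batch 1 in all 4 groups for 31 members (38.8%), beside 18.4% of all entries, and below it in all 4 for 3 members (3.75%), beside 26.2%. The number of members higher in batch 2 was 40 of 80 in siLATS1/2/p53, 69 in siLATS1/2, 61 in sip53 and 59 in siControl. In siLATS1/2/p53 the members were thus evenly split, and its batch 1 library is also the shallowest; the part of depth in these results was not tested. The members' median against sip53 was 0.15 without siLATS1/2/p53 batch 1 and 0.17 without its batch 2. These fits set 1 siLATS1/2/p53 library against both sip53 batches, so they do not match the batches. Within batches this median was 0.24 in batch 1 and 0.09 in batch 2. In the block fit, a group left with 1 library adds nothing to the batch term. Leaving out either library of a group leaves the same pairs of libraries to estimate it, so such fits are not separate checks.

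The subunits had similar medians. The median in siLATS1/2/p53 against sip53 was 0.16 over 49 large subunit entries and 0.16 over 31 small subunit entries, and in siLATS1/2 against siControl it was -0.12 over the large and -0.11 over the small. The 52 tested entries with a pyrimidine run as defined above and the 12 without had medians of 0.06 and 0.05 in siLATS1/2/p53 against siControl. Those medians were -0.13 and -0.17 in siLATS1/2 against siControl, and 0.18 and 0.17 in siLATS1/2/p53 against siLATS1/2. They lay further apart elsewhere, at 0.16 and 0.03 in siLATS1/2/p53 against sip53, -0.10 and 0.01 in sip53 against siControl, 0.28 and 0.16 in the interaction, and 0.10 and 0.02 in batch 2 against batch 1. These are descriptions of sets of unequal size, with no test.

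Genes that serve translation without being ribosomal proteins lay near the members in some comparisons and apart in others. In siLATS1/2/p53 against siLATS1/2 the median was 0.17 over translation factors and 0.15 over ribosome biogenesis factors, beside 0.20 over the members. In siLATS1/2 against siControl these medians were -0.14 and -0.16, beside -0.11. In the interaction they were 0.18 and 0.06, beside 0.26 over the members and 0.10 over all entries. Over 50 tested ribosome biogenesis factors the median in siLATS1/2/p53 against sip53 was -0.12, against 0.16 for the ribosomal proteins, with none called without the block and 8 lower and none higher with it, beside the 9.42% of all entries lower and 12.7% higher. In sip53 against siControl their median was 0.13, where the ribosomal proteins had -0.07, and 40 of 50 lay above 0, beside 60.3% of all entries. RNA polymerase I subunits and factors (20 tested) had 0.16 in sip53 against siControl, where POLR1C, a subunit shared with RNA polymerase III, rose by 0.49 ± 0.09 (limma, adjusted p = 0.0388). Against siLATS1/2, 4 of these 20 rose in siLATS1/2/p53 and 1 fell, beside the 14.5% of all entries called, and after rescaling 1 rose and 1 fell. UBTF, the upstream factor of ribosomal RNA genes, rose by 0.51 ± 0.08 (limma, adjusted p = 0.00843), TCOF1, the treacle protein, by 0.63 ± 0.12 (limma, adjusted p = 0.0157) and POLR1C by 0.44 ± 0.09 (limma, adjusted p = 0.0226). Of these, UBTF still passed after rescaling (0.0288), while TCOF1 (0.0561) and POLR1C (0.0940) did not. POLR1C in sip53 against siControl also missed the threshold after rescaling (0.0522). ZNRD1, named after its values were seen, had the largest fall among the RNA polymerase I genes. Its difference was -0.78 in sip53 against siControl and -0.80 in siLATS1/2/p53 against siLATS1/2. ZNRD1 was at 7.20 and 7.06 in siLATS1/2/p53, 7.82 and 8.05 in siLATS1/2, 7.29 and 7.44 in sip53, and 7.87 and 8.42 in siControl. Of the 50 biogenesis factors, 2 rose (4%) and none fell in siLATS1/2/p53 against siLATS1/2, beside the 14.5% of all entries called. In siLATS1/2 against siControl 1 fell (2%) and none rose, beside 7.7% of all entries. UTP18, of the small subunit processome, was at 10.27 on average in siLATS1/2/p53 and 9.71 in siLATS1/2, a rise of 0.56 ± 0.08 (limma, adjusted p = 0.00882). It fell by 0.46 ± 0.08 in siLATS1/2 against siControl (limma, adjusted p = 0.0223). NHP2, a protein of the particles that modify ribosomal RNA, rose by 0.69 ± 0.13 in siLATS1/2/p53 against siLATS1/2 (limma, adjusted p = 0.0186; 0.0580 after rescaling).

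Of 39 tested translation factors, 1 rose and 2 fell in siLATS1/2/p53 against siControl, beside the 14.6% of all entries called, and after rescaling none rose and 4 fell. EIF2S1, the alpha subunit of eIF2, rose by 0.36 ± 0.10 (limma, adjusted p = 0.0472; 0.0677 after rescaling), and EIF5, its GTPase activator, fell by 0.49 ± 0.09 (limma, adjusted p = 0.0139). EIF1, which guards start codon choice, fell by 0.40 ± 0.08 (limma, adjusted p = 0.0205), and in siLATS1/2 it fell by 0.37 ± 0.08 (limma, adjusted p = 0.0410; 0.0683 after rescaling). FAU, the small subunit protein made as a ubiquitin-like fusion, was higher by 0.30 in siLATS1/2/p53 against sip53 (limma, adjusted p = 0.517; 0.0116 with the block).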

How the data were processed

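The deposited values are log2 levels per gene symbol in 8 libraries, with a floor of 5; per the submitters' processing notes, TopHat and build hg19 were used. How reads were counted, annotated and scaled, and why values stop at the floor, is not stated in these sources, and depth was estimated from the spacing of low values. Counts were therefore not modelled. The 12315 of 29991 entries that exceeded the floor in 2 or more libraries entered limma (version 3.58.1, under R 4.3.3), using its trended prior and 1 spread over the 4 groups, and p-values were adjusted by Benjamini-Hochberg over all of them at 0.05. The fit without the block was run on simulated data with independent noise, no batch shift and no floor. That run does not bear on the block fit or on values at the floor. Per the labels, the replicate number is the batch of cells. Deviations of same-numbered libraries correlated across all entries (r = 0.57 to 0.73 over 6 pairs of groups), so the batch was also fitted as a block. Over the members r was -0.42 to 0.54, and the -0.42 was between siLATS1/2 and siLATS1/2/p53. Other alternatives were rescaling, filters, a pseudocount, centring on the members and leaving out each library. Named genes were members called with the largest changes, paralogue pairs, MDM2-binding and stalk proteins, and in other lists up to 3 called genes per comparison; not every gene this rule takes is reported here. Members and lists were chosen with earlier results of these data known. Start windows came from RefSeq promoters on GRCh38.p14.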

Additional observations from a re-analysis of the deposited data

How the results depend on the processing

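Most called counts were small and moved with the settings; the cause was not tested. With the replicate block, called members numbered 18 in siLATS1/2/p53 against siControl, 17 in siLATS1/2 against siControl, 10 in sip53 against siControl, 34 in siLATS1/2/p53 against siLATS1/2, 19 in siLATS1/2/p53 against sip53 and 6 in the interaction, where without it they were 4, 1, 1, 4, 0 and 0. With the replicate block and rescaling they were 12, 9, 20, 10 and 17 in the same order of comparisons. RPL39L, which passed the filter only through its high groups, counts among the members called in siLATS1/2/p53 against siControl and against siLATS1/2. With the block it also counts in sip53 against siControl. With rescaling alone, 2 were called in sip53 against siControl and 2 in siLATS1/2/p53 against siLATS1/2, where the median was 0.043 with or without the block, and the interaction median was 0.17. Without a filter, 2 were called in siLATS1/2 against siControl. In fits of only the groups compared, the counts were 2 in siLATS1/2/p53 against siControl, 0 in siLATS1/2 against siControl, 0 in sip53 against siControl and 2 in siLATS1/2/p53 against siLATS1/2. Leaving out 1 library gave 0 to 3 calls in siLATS1/2/p53 against siControl, 0 in every case in siLATS1/2 against siControl, 0 to 1 in sip53 against siControl, 0 to 4 in siLATS1/2/p53 against siLATS1/2 and 17 to 32 for the batch; the lone library left in a group was taken to vary as the others do. The medians then ran from -0.0065 to 0.18 in siLATS1/2/p53 against siControl, -0.23 to -6e-04 in siLATS1/2 against siControl, -0.18 to 0.0059 in sip53 against siControl, 0.091 to 0.28 in siLATS1/2/p53 against siLATS1/2 and 0.17 to 0.38 in the interaction. In siLATS1/2/p53 against sip53, the median stayed at 0.11 to 0.22 and no member was called in any such fit. RPLP2 in sip53 against siControl was -0.24 with all libraries and not called; leaving out 1 library it ran from -0.47 to 1e-04, its highest value without siControl replicate 2 and of the other sign. Centred on the members' median, RPS27L in sip53 (limma, adjusted p = 0.0995), RPL39 in siLATS1/2 (0.118) and RPL22 in siLATS1/2/p53 (0.0853), all against siControl, missed the threshold. Without the 10 highest entries, the members' share of signal was 1.84% in siLATS1/2/p53, 1.73% in siLATS1/2, 1.64% in sip53 and 1.77% in siControl. The pseudocount changed no count by over 1.5 times. With the replicate block limma also called RPL3 (adjusted p = 0.0365) and RPL31 (0.00755) in siLATS1/2 and RPLP2 in sip53 (0.0333), each against siControl, RPLP1 (0.0220) and RPL15 (0.0379) in siLATS1/2/p53 against siControl, RPL3 (0.0108), RPL5 (0.0321) and RPLP0 (0.0362) against siLATS1/2, and RPL3 (0.0470), RPL10 (0.0265), RPL26 (0.0483) and RPLP2 (0.0307) against sip53; no other call of a member that the naming rule takes changed beyond those in the report.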
